A study of Mus musculus with 6 samples.

Results

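The 46 genes described here encode the machinery that licenses DNA replication origins, unwinds the double helix, copies it and supplies its building blocks. They were taken by gene symbol from a list of replication genes fixed by function. All 46 were present among the 15266 genes listed in the mRNA-seq table, and all 46 passed the filter on low read counts that left 12891 genes for testing. The libraries were made from D4 EBs, which are aggregates of mouse embryonic stem cells (mESCs) left to differentiate for 4 days in serum without LIF. Both lines derive from W9.5 mESCs. EVX1-Δfs (clone 14) carries small frameshift mutations in both copies of *Evx1*, in the part that encodes the homeodomain, and still transcribes the antisense RNA *Evx1as*. Del#3 (Evx1/Evx1asΔ2.6kb) lacks a stretch of 2.6 kb that holds the promoters of both genes. Both lines therefore lack functional EVX1, the comparison has no unedited control here, and a line stands for its genotype only as far as 1 edited line can. The study compared them to ask whether *Evx1as* acts apart from EVX1.

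The genes are described in the order of their work. In G1 phase the origin recognition complex, CDC6 and CDT1 load the ring-shaped MCM2-7 complex onto DNA, and geminin blocks CDT1 once S phase has begun. At S phase entry the kinase CDC7-DBF4 and a set of firing factors bring CDC45 and the GINS complex to the ring, which makes it an active helicase. Polymerases, the sliding clamp PCNA, its loader RFC, the single-strand binding protein RPA and the ligase then work at the fork. Embryonic stem cells and the early embryo divide fast, with a short G1 phase, and express these genes strongly. Many of them are textbook targets of E2F transcription factors.

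There were 3 libraries per line, 1 from each of 3 side-by-side differentiations that were each set up on a different day, and the same replicate number in both lines was read as the same set-up day. The reads on listed genes numbered 9024579 to 15699124 in EVX1-Δfs and 9729013 to 12231851 in Del#3, and replicate 1 was the deepest library of both lines. The targeted genes followed the labels: *Evx1* had 2582 to 4023 reads in EVX1-Δfs and 28 to 48 in Del#3, and *Evx1as* (listed as 5730457N03Rik) had 571 to 879 and 21 to 30. Markers of the D4 EB stage were present, with 4161 to 10040 reads on *Pou5f1*, 825 to 1756 on *T* and 400 to 910 on *Mixl1* per library, whereas the 4 listed neurectoderm markers summed to 0.838 to 1.84 RPM (reads scaled to a library total of 1000000 on listed genes). The 10 endoderm markers summed to 460.5 to 486.8 RPM in EVX1-Δfs and 411.4 to 433.4 RPM in Del#3, and the 10 pluripotency markers to 1521 to 1677 RPM and 1097 to 1603 RPM. In bulk RNA, fewer cells in S phase and less RNA per cell cannot be told apart.

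The promoters of a few members are shown because subunits of a single complex stood on different sides in the values that follow. The RefSeq table of GRCm38.p6 promoters holds 47 windows, each of 250 bases before to 50 after a transcription start, for 38 of the 46 genes. Each was searched on both strands for 4 octamers of the E2F type, TTTCCCGC, TTTGGCGC, TTTCGCGC and TTTGCCGC, and for CCAAT, the box bound by NF-Y. One or more of the 4 octamers stood in 15 of the 47 windows (31.9%), in 2.27% of all 32851 windows of that length and in 3.94% of the 12325 windows of tested genes. CCAAT stood in 55.3% of the members' windows and in 37.4% of all. Matching letters describe a window and show no binding. The 250 bases before the start follow for 2 helicase subunits, for *Rrm2*, the member that differed between set-up days, and for *Pola1*, the member with the largest difference between the lines. Capitals mark an octamer on either strand, and joined capitals longer than 8 letters are octamers that overlap.
Mcm5, chr8:75109259-75109508 of GRCm38.p6, plus strand: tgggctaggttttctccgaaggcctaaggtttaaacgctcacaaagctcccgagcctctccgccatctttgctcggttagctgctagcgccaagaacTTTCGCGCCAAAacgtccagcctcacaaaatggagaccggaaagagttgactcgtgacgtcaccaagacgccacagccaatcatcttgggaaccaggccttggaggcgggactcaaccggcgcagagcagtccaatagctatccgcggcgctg
Mcm6, chr1:128359706-128359955 of GRCm38.p6, minus strand: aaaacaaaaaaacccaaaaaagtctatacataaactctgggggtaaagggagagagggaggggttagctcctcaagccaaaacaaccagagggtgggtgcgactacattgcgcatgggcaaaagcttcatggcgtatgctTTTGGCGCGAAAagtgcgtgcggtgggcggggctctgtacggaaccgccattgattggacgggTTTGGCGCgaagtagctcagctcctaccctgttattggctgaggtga
Rrm2, chr12:24708004-24708253 of GRCm38.p6, plus strand: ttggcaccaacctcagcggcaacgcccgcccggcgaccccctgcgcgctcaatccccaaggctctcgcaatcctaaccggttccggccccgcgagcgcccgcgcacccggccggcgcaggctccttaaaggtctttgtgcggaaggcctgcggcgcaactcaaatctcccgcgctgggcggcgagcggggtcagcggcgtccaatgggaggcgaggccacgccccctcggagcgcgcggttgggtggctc
Pola1, chrX:93632156-93632405 of GRCm38.p6, minus strand: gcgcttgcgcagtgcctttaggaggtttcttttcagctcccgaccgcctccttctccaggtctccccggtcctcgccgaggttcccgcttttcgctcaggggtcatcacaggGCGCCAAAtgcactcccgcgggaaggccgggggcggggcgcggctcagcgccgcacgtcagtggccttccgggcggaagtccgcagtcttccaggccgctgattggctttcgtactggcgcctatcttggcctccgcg
The windows of *Mcm5* and *Mcm6* hold overlapping octamers of the E2F type, and that of *Pola1* holds 1. That of *Rrm2* holds none of the 4 octamers, though it holds CCAAT.

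Most of the 46 genes were expressed above the typical gene in D4 EBs of both lines. Levels between genes are given per length, as RPKM (RPM per kilobase of exon), with the mean ± SD over libraries. The median member stood at 37.2 RPKM, where the median of 12151 tested genes with a gene model was 6.42 RPKM, and 44 of the 46 lay above that median, all but *Orc4* and *Pola1*. The helicase ring took the largest share of reads. *Mcm5* was the highest member, at 306 ± 67.1 RPKM in EVX1-Δfs and 324 ± 99.0 RPKM in Del#3 (SD, n = 3 each). *Mcm2* followed at 203 ± 35.8 and 221 ± 38.5 RPKM, and the next within the ring was *Mcm7* at 119 ± 6.07 and 122 ± 18.2 RPKM. *Mcm3*, *Mcm6* and *Mcm4* had means over 6 libraries of 101, 58.2 and 51.3 RPKM, so that subunits present in equal number in the ring spanned a 6.15-fold range of mRNA level, with *Mcm5* first in all 6 libraries.

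Subunits of several other complexes also stood far apart, whereas those of RPA spanned 1.63-fold, from *Rpa1* at 38.4 RPKM to *Rpa2* at 62.8 RPKM. Of the origin recognition complex, *Orc6* had a mean over 6 libraries of 84.9 RPKM and *Orc4* of 3.23 RPKM, with *Orc4* last of the licensing genes in all 6 libraries. *Cdt1* stood at 93.3 RPKM, *Gmnn* (geminin) at 46.9 RPKM and *Cdc6* at 16.3 RPKM. The gene body of *Cdt1* lies across 5114 bases of *Gm20388* on the same strand, where strand cannot tell their reads apart. Of the GINS complex, *Gins4* was at 144 RPKM and *Gins3* at 15.6 RPKM. *Pcna* stood at 152 RPKM, which includes any reads that its 2 annotated pseudogenes (*Pcna-ps1* and *Pcna-ps2*) gave or took. Of its loader, *Rfc2* was at 136 RPKM and *Rfc1*, the large subunit, at 20.1 RPKM. Among the polymerases, *Pold2* was at 96.3 RPKM and *Pola1*, the catalytic subunit of polymerase alpha, had the lowest mean over 6 libraries at 3.16 RPKM, close to that of *Orc4*, which was the lower of the pair in Del#3 (3.59 RPKM, beside 4.29 for *Pola1*). The other subunits of these complexes lay between, such as *Orc5* at 23.4 RPKM, *Gins1* at 32.6, *Pola2* of polymerase alpha at 26.2, *Prim1*, the catalytic primase subunit, at 10.5 and *Pole*, the catalytic subunit of polymerase epsilon, at 11.0. Of the firing factors, *Mcm10* stood at 24.9 RPKM and the kinase gene *Cdc7* at 10.1 RPKM. The level moved with base composition, which was not corrected for: across the 46 members the log2 RPKM and the GC content of the transcript had r = 0.59, and across 11911 tested genes r = 0.18, from the same libraries and gene models. Its part in these ranges was not tested. The length of a gene here counts all its annotated exons. For some genes it exceeds the longest coding transcript, as for *Rpa2* (2993 against 1813 bases) and *Prim1* (3864 against 1583). The ranges, that of RPA included, hold for this measure of length only.

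**Figure D1:**
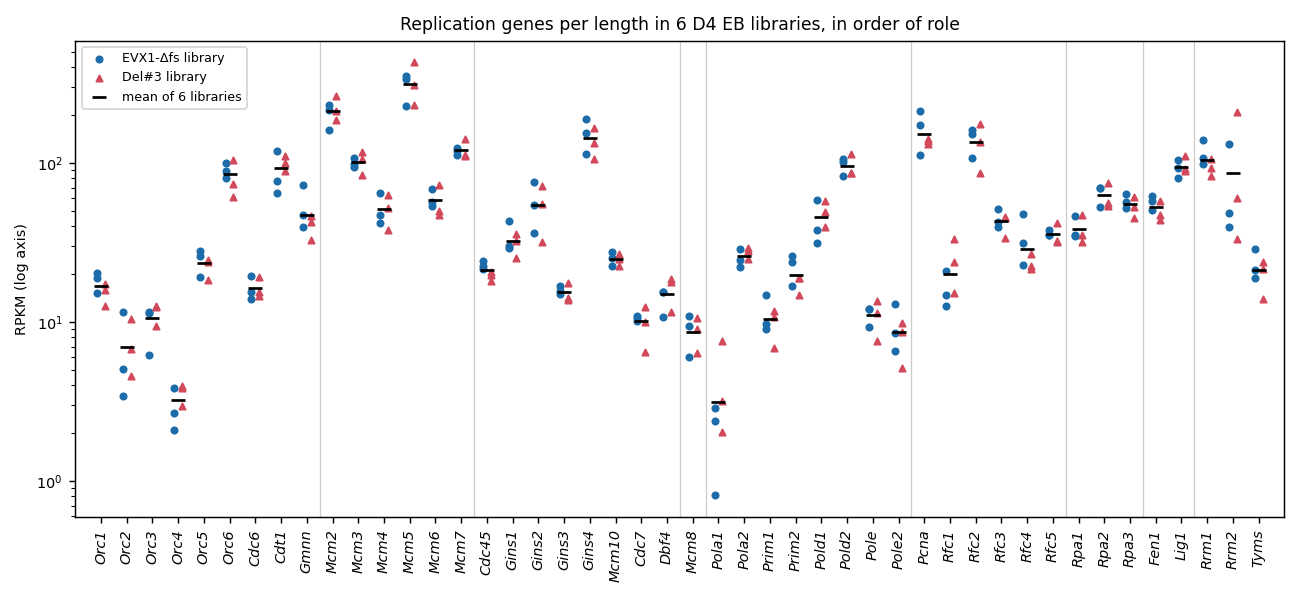
Level of each of the 46 genes per length, as RPKM on a log axis, in order of role with grey lines between roles. Circles are the 3 EVX1-Δfs libraries, triangles the 3 Del#3 libraries and black dashes the mean of all 6. *Mcm5*, at a mean of 315 RPKM, is the highest gene and *Pola1*, at a mean of 3.16 RPKM, the lowest, and the symbols of the lines lie over each other for most genes.

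Between the lines, no replication gene passed the test. Differences are log2 fold changes of Del#3 against EVX1-Δfs on the log2(normalized count + 1) scale, tested with limma over all 12891 genes with Benjamini-Hochberg adjustment at 0.05. None of the 46 members was called, where 2 of all genes were (0.0155%), which were *Evx1* and *Evx1as*. At an unadjusted p under 0.05, 0 of the 46 stood out by limma, beside 133 of all genes (1.03%). DESeq2 and edgeR called none of the members either. The members' median log2 fold change was -0.10, beside 0.00 for all genes, and 33 of the 46 (71.7%) lay below 0, beside 49.6% of all genes. The median was -0.01 without Del#3 replicate 1 and also without EVX1-Δfs replicate 3. By set-up day the members' median was -0.12, 0.19 and -0.23 for replicates 1 to 3, so that its sign differed between days.

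The ranges of the lines overlapped for every member. No member had all Del#3 libraries below all EVX1-Δfs libraries (1.80% of all genes did) and none had them all above (1.71%). Compared within a set-up day, 9 members were lower in Del#3 in 3 of 3 pairs (11.0% of all genes) and 4 were higher in 3 of 3 (12.1%). The first were *Orc1*, *Orc6*, *Gmnn*, *Mcm6*, *Gins3*, *Prim2*, *Pole2*, *Rpa3* and *Rrm1*, and the second were *Orc3*, *Dbf4*, *Pold1* and *Rfc1*. The data bound the size of any difference: for 39 of the 46 members (84.8%, beside 61.1% of all genes) the 95% interval of the fold change lay within 2-fold in either direction. With set-up day as a block it did so for 45 (97.8%, beside 76.2% of all genes), all but *Pola1*. The 46 genes together took 0.801% to 0.887% of the reads of a library, and their sum was 8363 ± 365 RPM in EVX1-Δfs and 8372 ± 432 RPM in Del#3 (SD, n = 3 each).

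**Figure D2:**
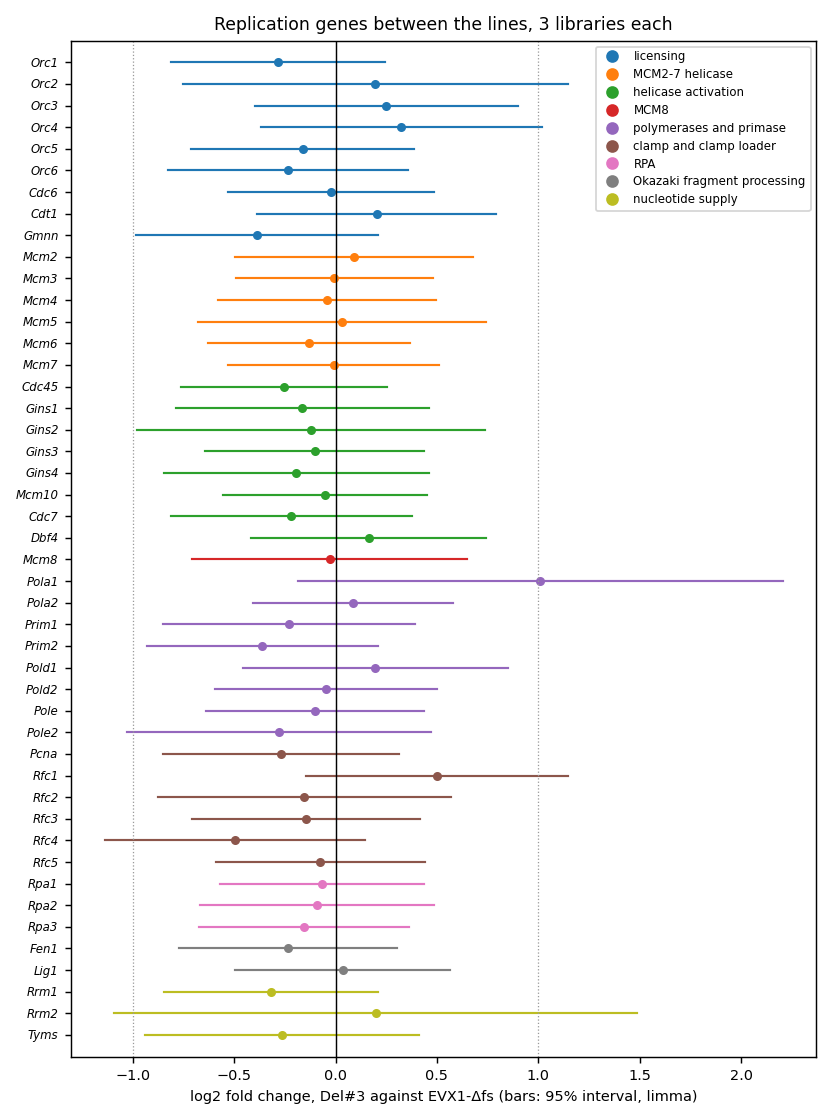
Log2 fold change of each of the 46 genes in Del#3 against EVX1-Δfs (point) with its 95% interval by limma (bar), coloured by role, with 3 libraries per line and dotted lines at 2-fold. Every interval includes 0, and *Pola1* (1.01), *Rfc1* (0.50) and *Rfc4* (-0.50) lie farthest from it.

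Of the 9 licensing genes, 5 were below 0 and 4 above. *Orc4*, a subunit of the origin recognition complex, had the highest value, at 207, 164 and 325 normalized counts in replicates 1 to 3 of EVX1-Δfs, and at 280, 334 and 232 in those of Del#3. *Gmnn* had the lowest, with 893, 500.4 and 634 normalized counts in EVX1-Δfs and 541, 441 and 529.7 in Del#3. The ranges overlapped for both, and *Gmnn* was lower in Del#3 on each set-up day. Their log2 fold changes were 0.32 ± 0.31 (SE, n = 3 per line) and -0.39 ± 0.27, and the limma adjusted p was 1.00 for both, as for every member. *Orc4* turned to -0.19 with set-up day as a block and length and GC content corrected for, and ran from 0.11 without EVX1-Δfs replicate 2 to 0.60 without EVX1-Δfs replicate 3. *Gmnn* ran from -0.58 without EVX1-Δfs replicate 2 to -0.17 without EVX1-Δfs replicate 1.

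The 6 genes of the MCM2-7 ring had a median log2 fold change of -0.01. *Mcm2* had the highest log2 fold change, 0.09 ± 0.27 (SE), and *Mcm6* the lowest, -0.13 ± 0.22 (-0.10 to 0.26 and -0.27 to -0.05 with 1 library left out), and the 95% intervals of all 6 stayed within 2-fold. *Mcm2* had 5667, 8219 and 8183 normalized counts in EVX1-Δfs and 6141, 9995 and 7498 in Del#3. *Mcm6* had 3103, 2629 and 2656 in EVX1-Δfs and 3088, 2329 and 2289 in Del#3. Replicate 1 was the lowest library of both lines for *Mcm2* and the highest of both for *Mcm6*. The ring as a whole summed to 3025 ± 286 RPM in EVX1-Δfs and 3153 ± 458 RPM in Del#3 (SD, n = 3 each).

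Of the 8 genes that turn the ring into a helicase, 7 lay below 0. *Cdc45*, which joins the ring as part of the active helicase, had 566, 511 and 573 normalized counts in EVX1-Δfs and 434, 525 and 428 in Del#3, a log2 fold change of -0.25 ± 0.23 (SE). The *Dbf4* count, that of the activator of the CDC7 kinase, was 1058, 744 and 1149.6 in EVX1-Δfs and 1152, 860 and 1284 in Del#3, a log2 fold change of 0.16 ± 0.26 (-0.03 without EVX1-Δfs replicate 2). *Dbf4* was thus a little higher in Del#3 on each day, by less than it moved between days. *Mcm8*, which acts with MCM9 in homologous recombination and not in the ring, had a log2 fold change of -0.03 ± 0.31.

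The polymerase and primase genes held the largest difference of all members. *Pola1* (chrX:90550106-90877494 of mm9, minus strand) had 217, 76.2 and 288 normalized counts in EVX1-Δfs and 658, 317 and 188 in Del#3. It was higher in Del#3 on the first 2 days and lower on the third, and the lines overlapped. Its log2 fold change was 1.01 ± 0.54 (SE, 95% interval -0.19 to 2.20, limma adjusted p = 1.00). The value was 0.53 without Del#3 replicate 1, 0.44 without EVX1-Δfs replicate 2, 1.43 without Del#3 replicate 3 and 0.66 once length and GC content of the transcript were corrected for in a model with set-up day as a block. *Pola1* has the lowest mean level of the members over the 6 libraries and a transcript of 5346 bases, and across the 46 members the log2 fold change and the transcript length had r = 0.43 (0.34 across 11911 genes). The part of transcript length in this value was otherwise not tested. *Prim2*, the large subunit of primase, had the lowest value of the group, -0.36 ± 0.26 (-0.56 without EVX1-Δfs replicate 2), with 581, 386 and 585 normalized counts in EVX1-Δfs and 401, 360 and 427 in Del#3.

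The subunits of the clamp loader lay on either side of 0. *Rfc1* (chr5:65653091-65726909 of mm9, minus strand) had 1308, 802 and 1003 normalized counts in EVX1-Δfs and 1939, 1028 and 1495.2 in Del#3. It was higher in Del#3 on each day, at a log2 fold change of 0.50 ± 0.29 (SE). *Rfc4* (chr16:23114016-23127810 of mm9, minus strand), a small subunit, had 762, 373 and 543 in EVX1-Δfs and 402.5, 376 and 362 in Del#3, a log2 fold change of -0.50 ± 0.29. *Rfc4* was lower in Del#3 on 2 days and level on the other. *Rfc1* was 0.29 if Del#3 replicate 1 was left out and 0.74 if Del#3 replicate 2 was, and *Rfc4* ran from -0.76 without EVX1-Δfs replicate 2 to -0.24 without EVX1-Δfs replicate 1. With the replicate number as a block the unadjusted p of both fell under 0.05, the 2 members for which it did beside 596 of all genes (4.62%). The limma p was then 0.0134 for *Rfc1* (adjusted p = 0.852) and 0.0475 for *Rfc4* (adjusted p = 0.992). *Rfc2*, *Rfc3*, *Rfc5* and *Pcna* lay between them.

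RPA, which coats single-stranded DNA, the genes that join Okazaki fragments and the nucleotide enzymes gave small differences between the lines, none of which passed the test. The log2 fold change was -0.07 ± 0.23 (SE) for *Rpa1* and -0.16 ± 0.23 for *Rpa3* (-0.17 to 0.05 and -0.26 to -0.05 with 1 library left out). It was 0.03 ± 0.24 for *Lig1*, the DNA ligase, and -0.23 ± 0.24 for *Fen1*, the flap nuclease (-0.12 to 0.15 and -0.40 to -0.10 with 1 library left out). The ribonucleotide reductase subunits lay on either side of 0. *Rrm1*, the large subunit, was at -0.32 ± 0.24, with 4100.5, 4568 and 6261 normalized counts in EVX1-Δfs and 3645, 3747 and 4409.7 in Del#3, lower on each day. Its value was -0.14 without EVX1-Δfs replicate 3. *Rrm2*, the small subunit whose supply rises in S phase, was at 0.20 ± 0.58, with most of its spread between set-up days, and was -0.49 if Del#3 replicate 1 was left out and 0.73 if Del#3 replicate 2 was.

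The replication genes varied more between the 3 set-up days than between the 2 lines. Of the sum of squares of the members about their means, 65.5% lay between replicate numbers, 13.9% between lines and 20.6% in the rest, beside 60.5%, 13.7% and 25.8% for all genes. These shares rest on 2, 1 and 2 degrees of freedom, so that days would hold the larger share even without any difference. In a limma F test of the replicate number with line in the model, *Rrm2* was the 1 of 46 members called at an adjusted p under 0.05, beside 546 of all genes (4.24%). At an unadjusted p under 0.05 there were 12 members, beside 27.7% of all genes: *Orc2*, *Mcm5*, *Gins2*, *Gins4*, *Dbf4*, *Mcm8*, *Pold1*, *Pole2*, *Rfc1*, *Rfc2*, *Rrm2* and *Tyms*. That share of the members, 26.1%, lay near the background. DESeq2's likelihood ratio test called 6, beside 10.1% of all genes, which adds *Gins2*, *Mcm5*, *Orc2*, *Pold1* and *Rfc2*.

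*Rrm2* (chr12:25393106-25399011 of mm9, plus strand) had 3784, 1431 and 1244 normalized counts in EVX1-Δfs, in order of replicate number, and 5640, 1038 and 1737 in Del#3. Both replicate 1 libraries lay above the other 4. The log2 difference from replicate 1 was -1.92 for replicate 2 and -1.65 for replicate 3, averaged over the lines (limma adjusted p = 0.0245). The call held when length and GC content were corrected for (adjusted p = 0.0242). Without Del#3 replicate 1 the adjusted p was 0.0564 and no member was called. Leaving out any of 4 other libraries raised the number of members called, to 8 without EVX1-Δfs replicate 2 (17.4%, beside 16.9% of all genes), 7 without EVX1-Δfs replicate 3 (15.2%, beside 18.3%), 7 without Del#3 replicate 2 (15.2%, beside 11.1%) and 9 without Del#3 replicate 3 (19.6%, beside 24.2%). *Rrm2* was among them each time, and the number of all genes called rose too. The log2 difference of replicate 1 from the mean of the others was 1.79 for *Rrm2*. It was -0.27 for its partner *Rrm1* (-0.67 with the correction) and -0.66 for *Tyms*, thymidylate synthase.

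**Figure D3:**
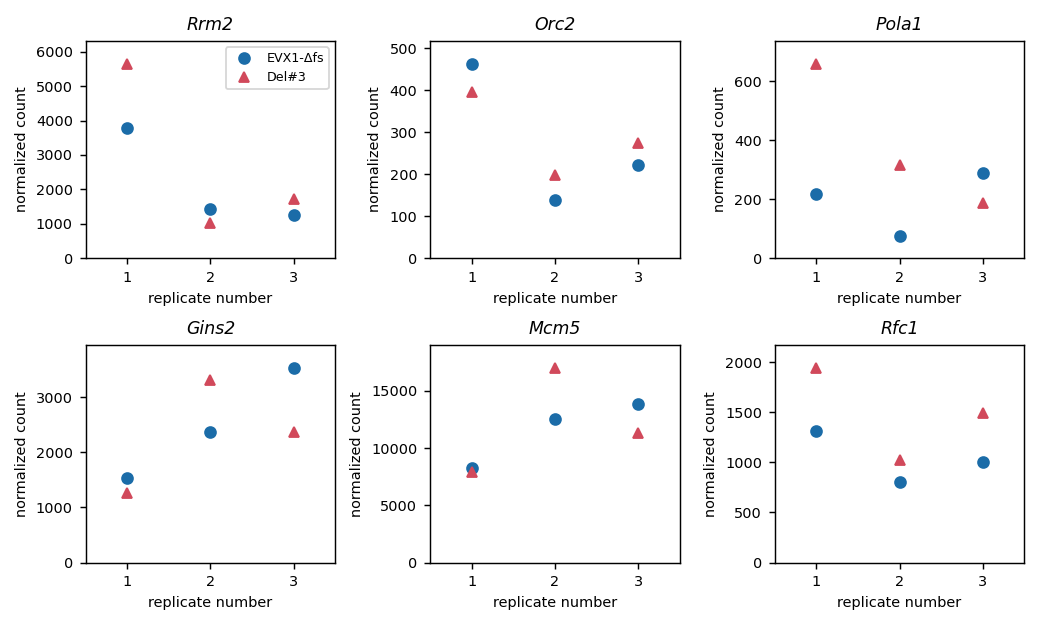
Normalized counts of 6 members by replicate number, each number being read as a set-up day shared by both lines (circles, EVX1-Δfs; triangles, Del#3; axes start at 0). For *Rrm2* both replicate 1 libraries, at 3784 and 5640, lie above the other 4, and for *Gins2* and *Mcm5* they lie below.

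Subunits of 1 complex stood on different sides between days, in values that did not pass the limma test. In the helicase ring, *Mcm5* had 8303, 12517 and 13861 normalized counts in EVX1-Δfs and 7951, 16979 and 11344 in Del#3, with both replicate 1 libraries below the other 4. The log2 difference of replicate 1 from the other 2 was -0.73 for *Mcm5*, -0.51 for *Mcm2* and -0.26 for *Mcm7*. For *Mcm4*, *Mcm6* and *Mcm3* it was 0.40, 0.33 and 0.12. When length and GC content were corrected for, these became -0.69, -0.46 and -0.18, and 0.12, 0.07 and 0.19, so that little of the excess of *Mcm4* and *Mcm6* was left. The 2 subunits whose promoters are printed above, *Mcm5* and *Mcm6*, were on opposite sides before and after that correction, with *Mcm6* near 0 after it. Neither had an adjusted p under 0.05 by limma before it (0.136 and 0.396).

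Clamp loader subunits also lay on either side. *Rfc2* had 1699, 2447 and 2749 normalized counts in EVX1-Δfs and 1284, 3007 and 2150 in Del#3, with replicate 1 the lowest of both lines, whereas *Rfc1* was highest in replicate 1 of both lines, by 0.59 on the log2 scale and by 0.26 when length and GC content were corrected for (-0.80 and -0.56 for *Rfc2*). *Gins2*, of the GINS complex, had 1540, 2371 and 3526 in EVX1-Δfs and 1266, 3320 and 2376 in Del#3, again with both replicate 1 libraries below the rest. *Orc2*, of the origin recognition complex, showed the opposite order, with 462, 139 and 221 in EVX1-Δfs and 395, 199 and 273 in Del#3. The limma adjusted p was 0.0502 for *Orc2*, 0.0782 for *Gins2* and 0.0974 for *Rfc2*. It was 0.120, 0.0668 and 0.136 when length and GC content were corrected for. The gene body of *Orc2* lies across 19046 bases of *Nif3l1* on the other strand, and that of *Gins2* across 10672 bases of *Gm20388*, so their reads are certain only where counting kept the strands apart. *Cdc45* varied least of the members, by 0.06 on the log2 scale between its highest and lowest day.

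Across the 46 members, 16 (34.8%) were highest in replicate 1 and 21 (45.7%) lowest, averaged over the lines, beside 42.4% and 38.9% of all genes. The range between days was above 1 on the log2 scale for *Rrm2*, *Orc2*, *Pola1* and *Gins2*, 8.70% of members beside 18.6% of all genes. Several measures moved with set-up day. Both replicate 1 libraries were the deepest of their line. The 6 blood markers summed to 185 to 193 RPM in replicate 1 and 112 to 153 RPM in the other 4 libraries, with *Gata1* and *Hbb-bh1* detected in all 6. Averaged over the lines, 5 of the 6 were highest in replicate 1. In Del#3, though, replicate 1 was the lowest library for *Tal1* (508, 705 and 578 normalized counts) and *Klf1* (26.3, 48.8 and 27.8). *Hba-x* had 355, 54.6 and 67.3 there. The difference of replicate 1 from the others went with GC content, with r = -0.48 over the 46 members and r = -0.39 over 11911 genes, all from the same 6 libraries. After the correction for length and GC content r was -0.19 and -0.02. Depth and set-up day cannot be told apart here, and the part of the blood cells was not tested.

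**Figure D4:**
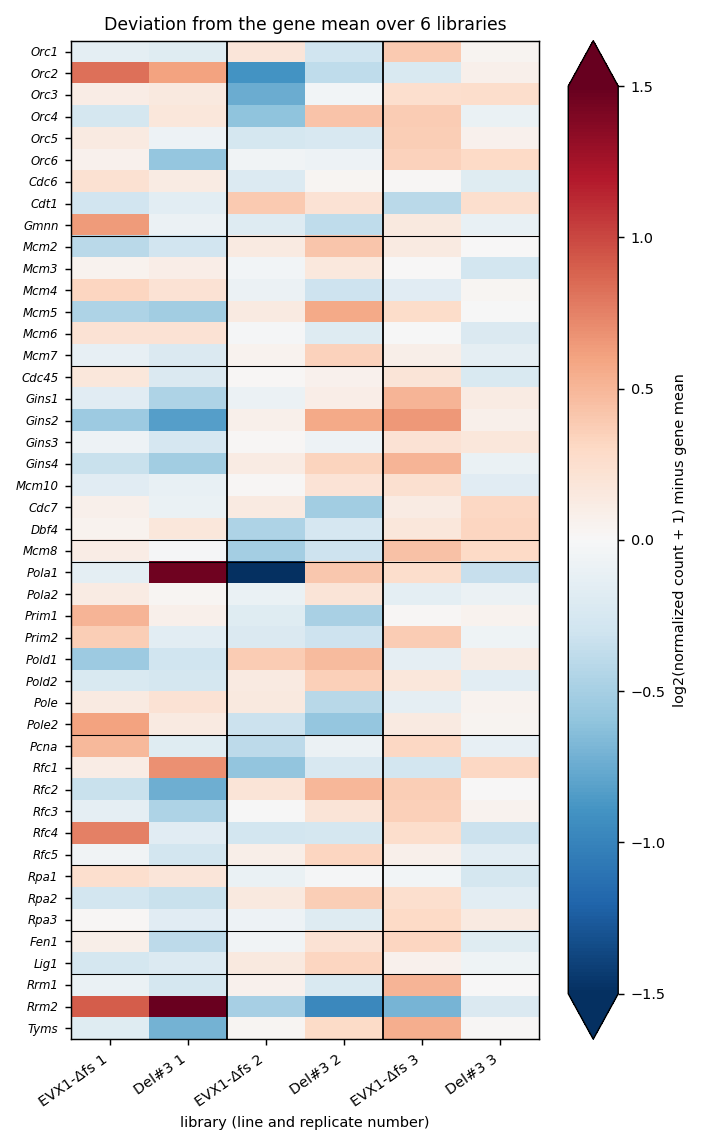
Log2(normalized count + 1) of each of the 46 genes in each library minus the gene's mean over the 6 libraries (red, above; blue, below; colours stop at 1.5), with the 2 libraries of a replicate number side by side and black lines between roles and between numbers. The replicate 1 columns are red for *Rrm2* and *Orc2* and blue for *Mcm5*, *Gins2* and *Rfc2* in both lines.

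**Figure D5:**
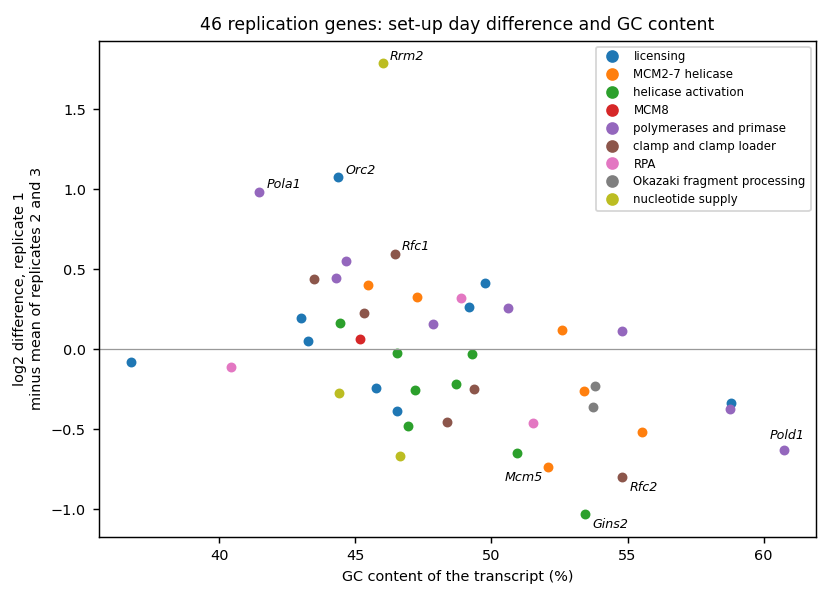
Log2 difference of replicate 1 from the mean of replicates 2 and 3, averaged over the lines, against the GC content of the transcript in percent, with 1 point per gene coloured by role. Genes of high GC content such as *Pold1*, *Rfc2* and *Gins2* lie below 0 and several of low GC content lie above it, with r = -0.48 over 46 genes, and *Rrm2* stands highest at 1.79.

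Of the genes that work beside the members, none passed the test between the lines. In 5 further lists, of 33, 26, 19, 16 and 25 tested genes, limma called none. Only *Brca2* of the checkpoint list had an unadjusted p under 0.05 (0.0460), and 3, 0, 0, 3 and 3 genes of the lists had one when set-up day was a block, which is 18.8% of the checkpoint list, 12% of the mitosis list and 9.09% of the first list, beside 4.62% of all genes. The first holds other replication factors such as alternative clamp loaders, chromatin assembly factors and topoisomerases, with a median log2 fold change of -0.03. In it *Atad5*, which unloads PCNA, was highest at 1.00 ± 0.74 (SE). It was 0.22 without Del#3 replicate 1, 0.26 without EVX1-Δfs replicate 2 and 1.54 without Del#3 replicate 3. *Dscc1*, of an alternative clamp loader, was lowest at -0.53 ± 0.32. *Dscc1* had 148, 110 and 204 normalized counts in EVX1-Δfs and 90.1, 97.5 and 125 in Del#3, and the lines overlapped. In other nucleotide synthesis the median was -0.06, between 0.32 ± 0.27 for *Cad*, which starts pyrimidine synthesis, and -0.35 ± 0.24 for *Paics* of purine synthesis (0.12 to 0.56 and -0.46 to -0.19 with 1 library left out).

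E2F and pocket proteins had a median of 0.12, between 0.43 ± 0.52 (SE) for *Rb1*, the retinoblastoma gene, and -0.45 ± 0.50 for *Cdkn2a*, a CDK inhibitor. With 1 library left out they ran from 0.04 to 0.89 and from -0.78 to 0.03. The S-phase checkpoint had a median of -0.02, between 1.15 ± 0.54 for the kinase gene *Atr* and -0.37 ± 0.35 for *Hus1* of the checkpoint clamp. *Atr* was 0.66 without EVX1-Δfs replicate 2 and 0.70 without Del#3 replicate 1, and *Hus1* ran from -0.61 to -0.13 with 1 library left out. In G2 and mitosis the median was 0.04, between 1.50 ± 0.68 for *Mki67* and -0.29 ± 0.25 for *Kif20a*, a mitotic kinesin. *Kif20a* had 2147, 1603 and 1993 normalized counts in EVX1-Δfs and 1985, 1288 and 1467 in Del#3, and the lines overlapped. *Mki67*, a proliferation marker, had 771, 229 and 1063 normalized counts in EVX1-Δfs and 4541, 1411 and 669 in Del#3. Its value was 0.76 without Del#3 replicate 1 and 0.84 without EVX1-Δfs replicate 2. Like *Pola1* and *Atr* it was higher in Del#3 on the first 2 days and lower on the third. Across 11911 genes the log2 fold change and the transcript length had r = 0.34. The part of length in this shared order was not tested. Between set-up days, the limma F test called 5 of the 119 genes of these lists (4.2%, beside the 4.24% of all genes): *Top2a* (adjusted p = 0.0225), *Brca1* (0.0258), *Kif11* (0.0383), *Rad17* (0.0390) and *E2f7* (0.0481). Like *Rrm2*, all 5 were highest in replicate 1 of both lines, and 42.4% of all genes were highest there averaged over the lines.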

How the data were processed

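mRNA was sequenced from D4 EBs of EVX1-Δfs and Del#3, with 3 replicates each. Per the paper's methods, the authors aligned the Ion Proton reads to the mm9 genome (TopHat2, followed by TMAP), obtained gene counts from HTSeq at standard settings and used DESeq2. The deposited values (signal) are counts divided by a size factor, called normalized counts here. Every library had 1 step of which 100% of its values were whole multiples (tolerance 0.1), which gave back the reads, 9024579 to 15699124 per library. Counting error covers reads, not molecules, and 3 libraries per line limit the precision.

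The members and lists were chosen by function, with earlier results of these data known. The line was tested with limma (version 3.58.1, R 4.3.3, intensity trend) on log2(normalized count + 1), after filterByExpr of edgeR (version 4.0.16, minimum count 10), with Benjamini-Hochberg adjustment over 12891 genes and no covariate. Set-up days were tested with a limma F test of the replicate number beside line. Alternatives used edgeR, DESeq2 (version 1.42.0) on the recovered reads, other filters, pseudocounts and scalings, a loess correction (span 0.3) for length and GC content, the block and 1 library left out. The fits were tested on simulated data.

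The series' design text gives side-by-side differentiations of both lines as the replicates, each set up on its own day, and equal replicate numbers were read as the same differentiation, though no title states a day. The deviations of same-numbered libraries from their line means correlated with r = 0.74, 0.32 and -0.05 over all genes for numbers 1 to 3, and with r = 0.85, 0.53 and 0.01 over the members. The p-values of the line test without a block measure the spread between differentiations of 1 line each. In the fits with the block and in the F test, the residual is how far the line difference changes between replicate numbers.

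RPKM used the joint length of all annotated exons of a gene, from the GENCODE annotation of NCBIM37, the assembly known as mm9. Of the members, 15 overlap another annotated gene, 11 a protein-coding one. Every member was named, and of each other list the genes with the highest and lowest log2 fold change and any called; those named for a set-up day or an unadjusted p were chosen after their values were seen.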

Additional observations from a re-analysis of the deposited data

How the results depend on the processing

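Between the lines, no member was called under any of the 19 alternatives, the replicate block included. The block moved the number of all genes called from 2 to 3 in limma and in edgeR, and from 3 to 9 in DESeq2. The members' median log2 fold change stayed below 0, from -0.13 without EVX1-Δfs replicate 2 to -0.01 without Del#3 replicate 1. Of the 46 members, 6 to 12 changed the sign of their log2 fold change when 1 library was left out, with 12 doing so without Del#3 replicate 1, and 0 to 4 changed it under the other alternatives. *Orc4* went to -0.19 with the replicate block and the length and GC correction, and *Mcm8* to 0.0044 with total reads. Leaving out 1 library gave -0.10 to 0.26 for *Mcm2*, -0.025 to 0.33 for *Dbf4*, -0.29 to 0.18 for *Mcm8*, -0.17 to 0.049 for *Rpa1*, -0.12 to 0.15 for *Lig1*, -0.49 to 0.73 for *Rrm2* and -0.78 to 0.034 for *Cdkn2a*. Between set-up days, the 1 called member became 6 with DESeq2's likelihood ratio test (10.1% of all genes called), 2 with no low-count filter (3.87%), 2 with at least 10 reads in every library (5.52%), 2 with a pseudocount of 5 (4.97%) and 6 at an adjusted p under 0.1 (12.4%), and 0 to 9 with 1 library left out (1.50% to 24.2%). The cause of these changes was not tested. The 95% intervals of 7 of the 46 members reached beyond 2-fold, and with the block that of *Pola1* alone.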
